A study of Homo sapiens with 28 samples.

Results

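The second day of arsenic trioxide (ATO) treatment was read as the difference between arrays of cells treated for 48 h and arrays of the same cell lines treated for 24 h. The contrast holds 8 of the 28 arrays of the series, 4 at ATO 48 h and 4 at ATO 24 h, and every probe set of the array was measured in it. The arrays were chosen by the line and time in their labels, and no untreated array enters the difference itself. The 4 lines are U266, MM.1s, KMS11 and 8226/S, established human lines of multiple myeloma, a cancer of antibody-secreting plasma cells. In both groups the cells had received 2 µM ATO, without interruption as far as the labels say, in the same serum-supplemented medium. The other 20 arrays are cells after 6 h of ATO, cells after 6 or 24 h of darinaparsin (DAR, an organic arsenic compound) and untreated cells. They serve here to estimate the spread and to place the levels in time. Each line has 1 array per time, so a line is the replicate. The p-values rest on the residual spread of all 28 arrays around line, array set and treatment time, and not on the spread of the 4 paired changes alone. The titles of the untreated arrays give no time, and none is named as taken at 24 or 48 h. Longer exposure and longer culture therefore cannot be told apart.

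ATO is an inorganic arsenic compound that binds closely spaced thiol groups of proteins and is used against acute promyelocytic leukaemia. Cells that divide make DNA replication proteins under the control of E2F factors as they enter S phase, and mitotic proteins later, largely under the DREAM and MuvB complexes that act through a promoter element called CHR. Cells loaded with misfolded secretory protein make more chaperones of the endoplasmic reticulum (ER), through a promoter element called ERSE, and plasma cells are rich in these chaperones because they secrete antibody.

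These elements are shown in promoters of genes described below, because the lists of DNA replication, mitosis and ER chaperones are described most fully. No binding or activity of a factor was measured. The windows are from RefSeq promoters on GRCh38.p14, they lie within the 250 bases before the gene start, and capitals mark the motif. The first 3 genes belong to DNA replication and carry an E2F motif, written as GCGGGAAA, the reverse complement of TTTCCCGC. They lie at chr19:4909467-4909500 on the plus strand for UHRF1, at chr13:33818074-33818121 on the plus strand for RFC3 and at chr16:85688958-85689005 on the minus strand for GINS2.
UHRF1: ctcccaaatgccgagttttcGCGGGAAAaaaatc
RFC3: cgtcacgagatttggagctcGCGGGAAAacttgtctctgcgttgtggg
GINS2: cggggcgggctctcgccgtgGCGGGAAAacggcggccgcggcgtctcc
The next 2 are mitotic genes with the CHR motif, at chr2:168890652-168890680 on the minus strand for SPC25 and at chr5:163460584-163460631 on the plus strand for HMMR, which holds the motif 2 times in a row.
SPC25: ttaTTTGAAgccgataaatgacttgtcgt
HMMR: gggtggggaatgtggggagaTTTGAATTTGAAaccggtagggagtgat
The last is the ERSE of HSPA5, which encodes the main ER chaperone, at chr9:125241371-125241429 on the minus strand.
HSPA5: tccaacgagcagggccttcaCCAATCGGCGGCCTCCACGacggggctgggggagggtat

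Both strands were searched, and a match is a description of the letters only. The E2F letters TTTCCCGC or TTTGGCGC stood in 14 of 43 promoters of the DNA replication list (32.6%) and in 536 of 27305 promoters of all genes (1.96%). The CHR letters TTTGAA stood in 27 of 52 promoters of the mitosis list (51.9%), against 13.6% of all promoters. The ERSE letters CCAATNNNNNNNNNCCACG stood in 7 of 28 promoters of the ER list (25.0%), against 0.0806% of all promoters.

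Each array was scaled by the authors to a common trimmed mean of 500.1, so a change is relative to the rest of the array. Levels and changes below are on the log2 scale of the signal plus 32 unless a signal is named, and a gene was read from its brightest probe set. The median signal of the arrays lay between 121.0 and 143.8 at ATO 48 h and between 110.9 and 147.3 at ATO 24 h. Over all 19775 genes the changes had a median of 0.05 in U266, 0.01 in MM.1s, 0.05 in KMS11 and -0.01 in 8226/S. Signals of the 3′ over the 5′ probe sets, a sign of RNA quality, were between 1.10 and 1.27 for ACTB on these 8 arrays. Of the plasma cell transcripts, IRF4 was present in all 4 lines. Its signal was 3401 or more on each of the 4 ATO 48 h arrays and 3815 or more on each of the 4 ATO 24 h arrays. Other plasma cell markers differ between lines, and MZB1 was at 13.7 in U266 at ATO 48 h and at 28.3 in U266 at ATO 24 h. CD38, a surface marker of plasma cells, was dim in U266, at 11.7 at ATO 48 h and 64.5 at ATO 24 h, and in KMS11, at 15.7 at ATO 48 h and 14.4 at ATO 24 h.

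No gene passed the test. Limma's fit had a block for each line within each array set, and Benjamini-Hochberg adjustment over 54613 probe sets. In it 0 of 19775 genes (0.0%) had an adjusted p under 0.05, and 0 probe sets did (0.0%). The smallest adjusted p was 0.0735 in this fit, and it lay between 0.0507 and 1 in the 6 other designs, none of which called a probe set. At an unadjusted p under 0.05 stood 648 genes that were lower at 48 h (3.28%) and 578 that were higher (2.92%). Of all genes, 1471 were lower in 4 of 4 lines (7.44%) and 1920 were higher in 4 of 4 lines (9.71%). These shares are the background for the lists below, where counts are of genes at an unadjusted p under 0.05 and of genes with the same sign in 4 of 4 lines. Members and lists were chosen with earlier results of these data known, so a list share above the background is a description and not a test. The 48 h and 24 h arrays did not overlap for 236 genes (1.19%). The fit of the 8 arrays of the contrast alone, where the spread is that of the 4 paired changes moderated over genes, put 831 genes lower (4.2%) and 906 higher (4.58%) at an unadjusted p under 0.05. Its counts are given below for lists where they differ by over 1.5 times. Without MM.1s 409 genes were lower at an unadjusted p under 0.05, and without KMS11 367 were higher. In 20 cases a list had a single gene at an unadjusted p under 0.05 in a direction, and in 17 of them the count was 0 without at least 1 of the lines. The 3 exceptions were the lower count of the cyclin D list and the higher counts of the MHC and p53 lists.

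**Figure D1:**
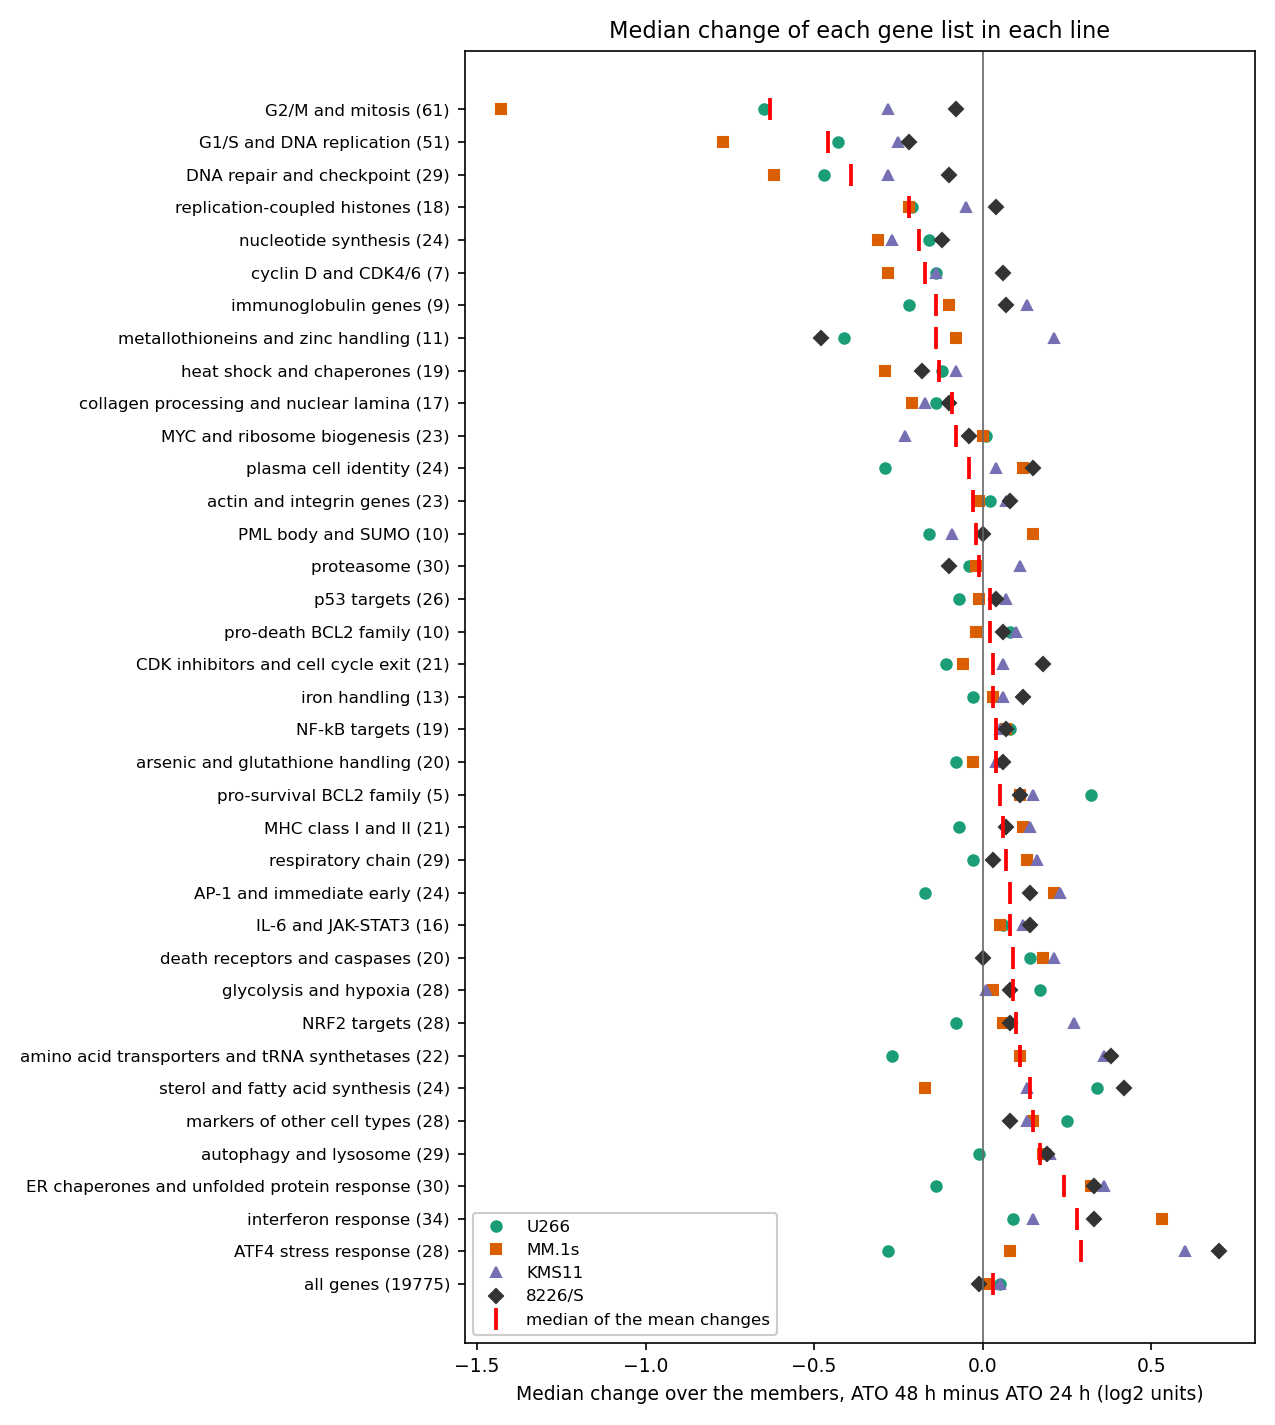
Median change of each of 36 gene lists in each line, ATO 48 h minus ATO 24 h, in log2 units, with the number of measured members in brackets; the red mark is the median over members of the mean change of the 4 lines. The mitosis list is at -1.43 in MM.1s and at -0.08 in 8226/S, and the ATF4 list is at -0.28 in U266 and at 0.70 in 8226/S.

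Genes of DNA replication were lower after 48 h than after 24 h. Of the 51 genes of the list, all measured, 34 were lower at an unadjusted p under 0.05 (66.7%) and 0 were higher, and 38 were lower in 4 of 4 lines (74.5%). The median change of the list was -0.46, against 0.03 for all genes, and no member passed the adjusted test (smallest adjusted p = 0.398 in limma's fit). By line the median was -0.43 in U266, -0.77 in MM.1s, -0.25 in KMS11 and -0.22 in 8226/S. Without MM.1s, 19 members were lower at an unadjusted p under 0.05. Of the 43 other probe sets of these genes, 16 were lower at an unadjusted p under 0.05 and 0 higher, with a median of -0.41.

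The replicative helicase, which unwinds DNA ahead of the polymerases, is built from the MCM ring, CDC45 and the GINS complex. MCM7, a subunit of the ring, had signals of 1467 in U266, 910.1 in MM.1s, 1547 in KMS11 and 6860 in 8226/S at ATO 48 h, against 1510, 1199, 1799 and 8486 in the same lines at ATO 24 h. All 4 lines were lower, but the ranges of the 2 groups overlap almost wholly, because the lines differ more from each other than the times do. The log2 change of MCM7 was -0.24 ± 0.14, with a 95% interval of -0.54 to 0.06 (limma, unadjusted p = 0.116, adjusted p = 0.965). Here and below ± after a change is the SE of limma's fit of 28 arrays, which can be smaller or larger than the spread of the 4 changes gives. The SD of the 4 changes of MCM7 was 0.15, and the fit of 8 arrays gave an unadjusted p of 0.0304 (limma, adjusted p = 0.63).

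GINS2, a subunit of the GINS complex, had signals of 474.9 in U266, 184.4 in MM.1s, 1225 in KMS11 and 1512 in 8226/S at ATO 48 h. At ATO 24 h the same lines had 1156, 645.6, 1246 and 2254. The difference lay in U266, MM.1s and 8226/S, while the change in KMS11 was -0.02, and the groups overlap. The log2 change was -0.87 ± 0.24 (limma, unadjusted p = 0.00129, adjusted p = 0.443), and the 2 other GINS2 probe sets, both dimmer, were at -0.19 and 0.06. The 4 changes of GINS2 had an SD of 0.72. GINS1, from the same complex, had signals of 1037, 420.2, 1685 and 5161 in U266, MM.1s, KMS11 and 8226/S at ATO 48 h, against 1882, 1243, 2939 and 6790 at ATO 24 h. Every line was lower by at least 0.39 log2 units, and the mean change was -0.88 ± 0.21 (limma, adjusted p = 0.398).

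CDC45, which joins the MCM ring to GINS, was at 158.9, 90.2, 631.7 and 325.7 in U266, MM.1s, KMS11 and 8226/S at ATO 48 h, against 357.0, 385.7, 704.5 and 561.3 at ATO 24 h. All 4 lines were lower, MM.1s by 1.77 log2 units and KMS11 by 0.15. The CDC45 signal in MM.1s at 48 h lay under the median of its array, 142.1, so this change too is among dim values. Claspin (CLSPN), an adaptor of the replication checkpoint, had signals of 196.5, 30.8, 115.0 and 317.8 at ATO 48 h in the same order of lines, and of 370.8, 142.5, 281.0 and 617.4 at ATO 24 h. The MM.1s signal at 48 h lies well under the median of its array, so its change of -1.47 is among dim values. The mean change of CLSPN was -1.07 ± 0.26, and its 3 other probe sets were lower by less, between -0.61 and -0.08.

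UHRF1, which keeps DNA methylation through replication, had signals of 766.2, 635.2, 1429 and 2937 in U266, MM.1s, KMS11 and 8226/S at ATO 48 h, against 1480, 1848, 1767 and 4590 at ATO 24 h. RFC3, a subunit of the clamp loader, had 716.3, 502.1, 1873 and 3033 at ATO 48 h, against 1112, 1306, 2495 and 3406 at ATO 24 h. Both were lower in 4 of 4 lines with MM.1s the lowest, at changes of -1.49 for UHRF1 and -1.32 for RFC3. These 2 genes and GINS2 carry the E2F motif printed above.

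**Figure D2:**
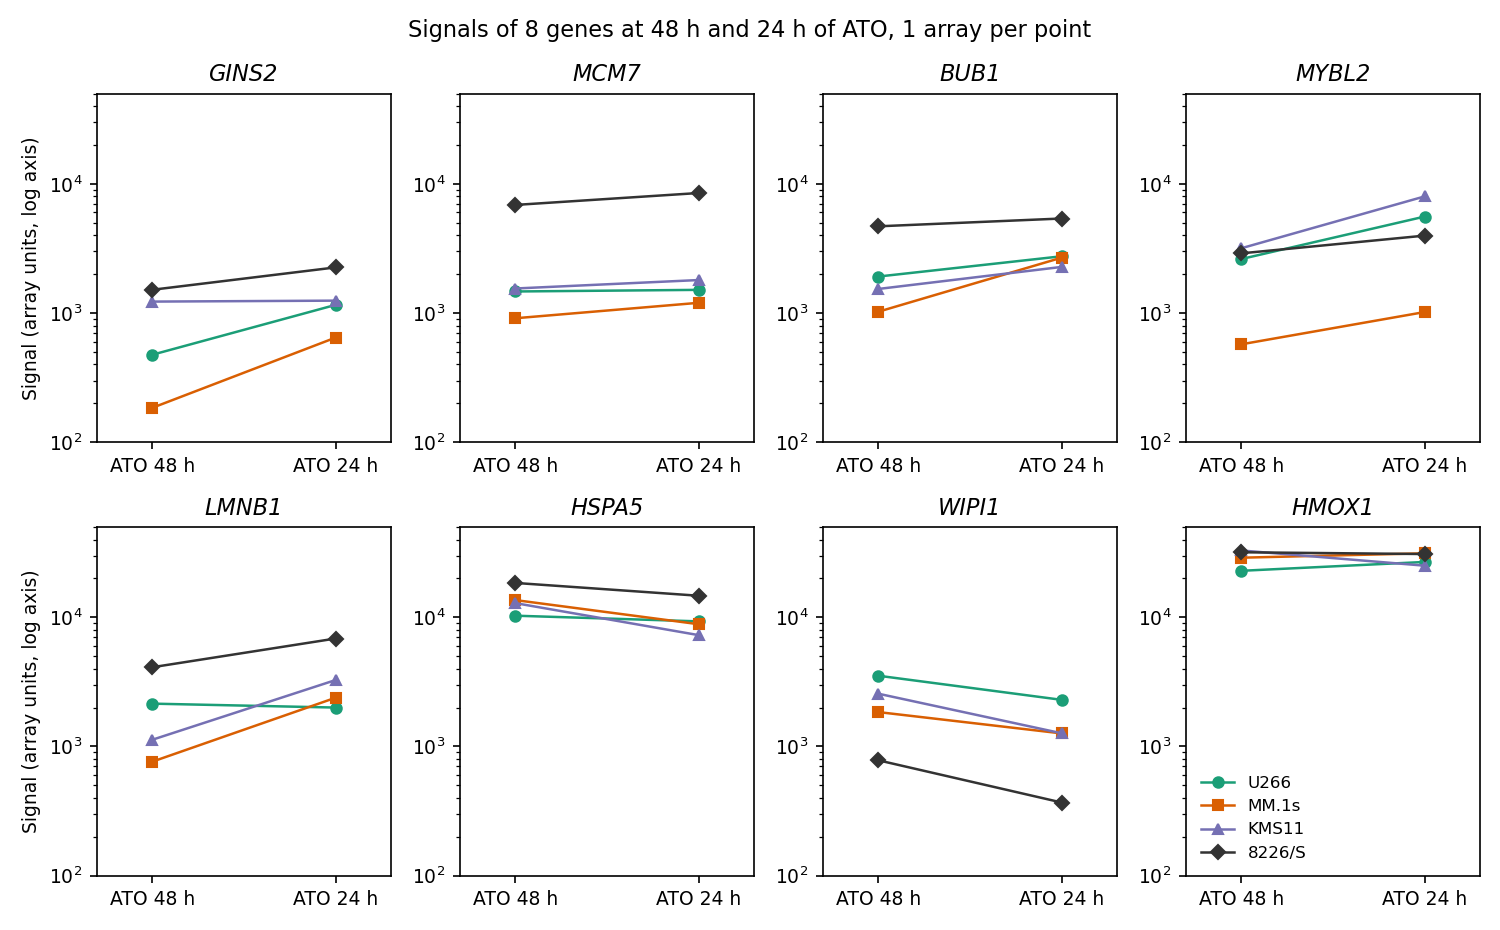
Signals of 8 genes in array units on a log axis, ATO 48 h on the left and ATO 24 h on the right of each panel, with 1 array per point and a line joining the 2 arrays of a cell line. BUB1 and MYBL2 are lower at 48 h in all 4 lines, WIPI1 and HSPA5 are higher in all 4, and LMNB1 is not lower in U266. HMOX1 stays between 22899 and 32912 throughout, near the top of the array scale.

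Mitotic genes gave the lowest median of the 36 lists, and 1 line made most of it. Of 61 genes, all measured, 53 were lower at an unadjusted p under 0.05 (86.9%), 0 were higher, and 37 were lower in 4 of 4 lines (60.7%). The median change was -0.63, and by line it was -0.65 in U266, -1.43 in MM.1s, -0.28 in KMS11 and -0.08 in 8226/S. In MM.1s 49 of the 61 were lower by over 1 log2 unit, against 5 in U266, 1 in KMS11 and 1 in 8226/S. Without MM.1s the median of the list was -0.33, and 19 members were lower at an unadjusted p under 0.05, while without U266 the count was 33. Of the 53 other probe sets of these genes, 27 were lower at an unadjusted p under 0.05 and 0 higher, with a median of -0.45. The difference between lines could not be tested with 1 array per line and time.

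BUB1, a kinase of the spindle checkpoint, had signals of 1914 in U266, 1022 in MM.1s, 1534 in KMS11 and 4686 in 8226/S at ATO 48 h. At ATO 24 h it had 2748, 2682, 2273 and 5387 in the same lines. All 4 lines were lower, and the groups overlap only through 8226/S, whose 48 h array lies above the 24 h arrays of the 3 other lines. The log2 change was -0.66 ± 0.17 with a 95% interval of -1.01 to -0.31 (limma, unadjusted p = 0.0007, adjusted p = 0.398), and the SD of the 4 changes was 0.50. Of the 4 other BUB1 probe sets 3 were lower, with a range of -0.56 to 0.30.

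MYBL2, a transcription factor of the MuvB complex that switches on late cell cycle genes, had the smallest p of the list. Its signals were 2614, 571.9, 3168 and 2894 in U266, MM.1s, KMS11 and 8226/S at ATO 48 h, against 5577, 1017, 7990 and 3971 at ATO 24 h. KMS11 was the lowest here, at -1.33, and 8226/S the least low, at -0.45. The mean change was -0.91 ± 0.18 (limma, unadjusted p = 4.7e-05, adjusted p = 0.184). Cyclin A2 (CCNA2), which drives S phase and the entry into mitosis, had signals of 1439, 569.5, 3328 and 3918 at ATO 48 h in the same order of lines, against 2847, 2249, 5070 and 4651 at ATO 24 h. Each line was lower, MM.1s by 1.92 log2 units and 8226/S by 0.25.

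SPC25, a kinetochore subunit with the CHR motif printed above, had signals of 606.6, 318.4, 1231 and 1135 in U266, MM.1s, KMS11 and 8226/S at ATO 48 h, against 1020, 989.6, 1674 and 1344 at ATO 24 h. Survivin (BIRC5), a subunit of the chromosomal passenger complex, had 1433, 473.1, 4187 and 3111 at ATO 48 h, against 2786, 2022, 5179 and 3768 at ATO 24 h. Both were lower in 4 of 4 lines, and the MM.1s change of BIRC5 was -2.02. HMMR, a spindle protein shown for its promoter and not by the rule for named genes, had changes of -0.74, -1.83, -0.43 and -0.08 in U266, MM.1s, KMS11 and 8226/S.

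**Figure D3:**
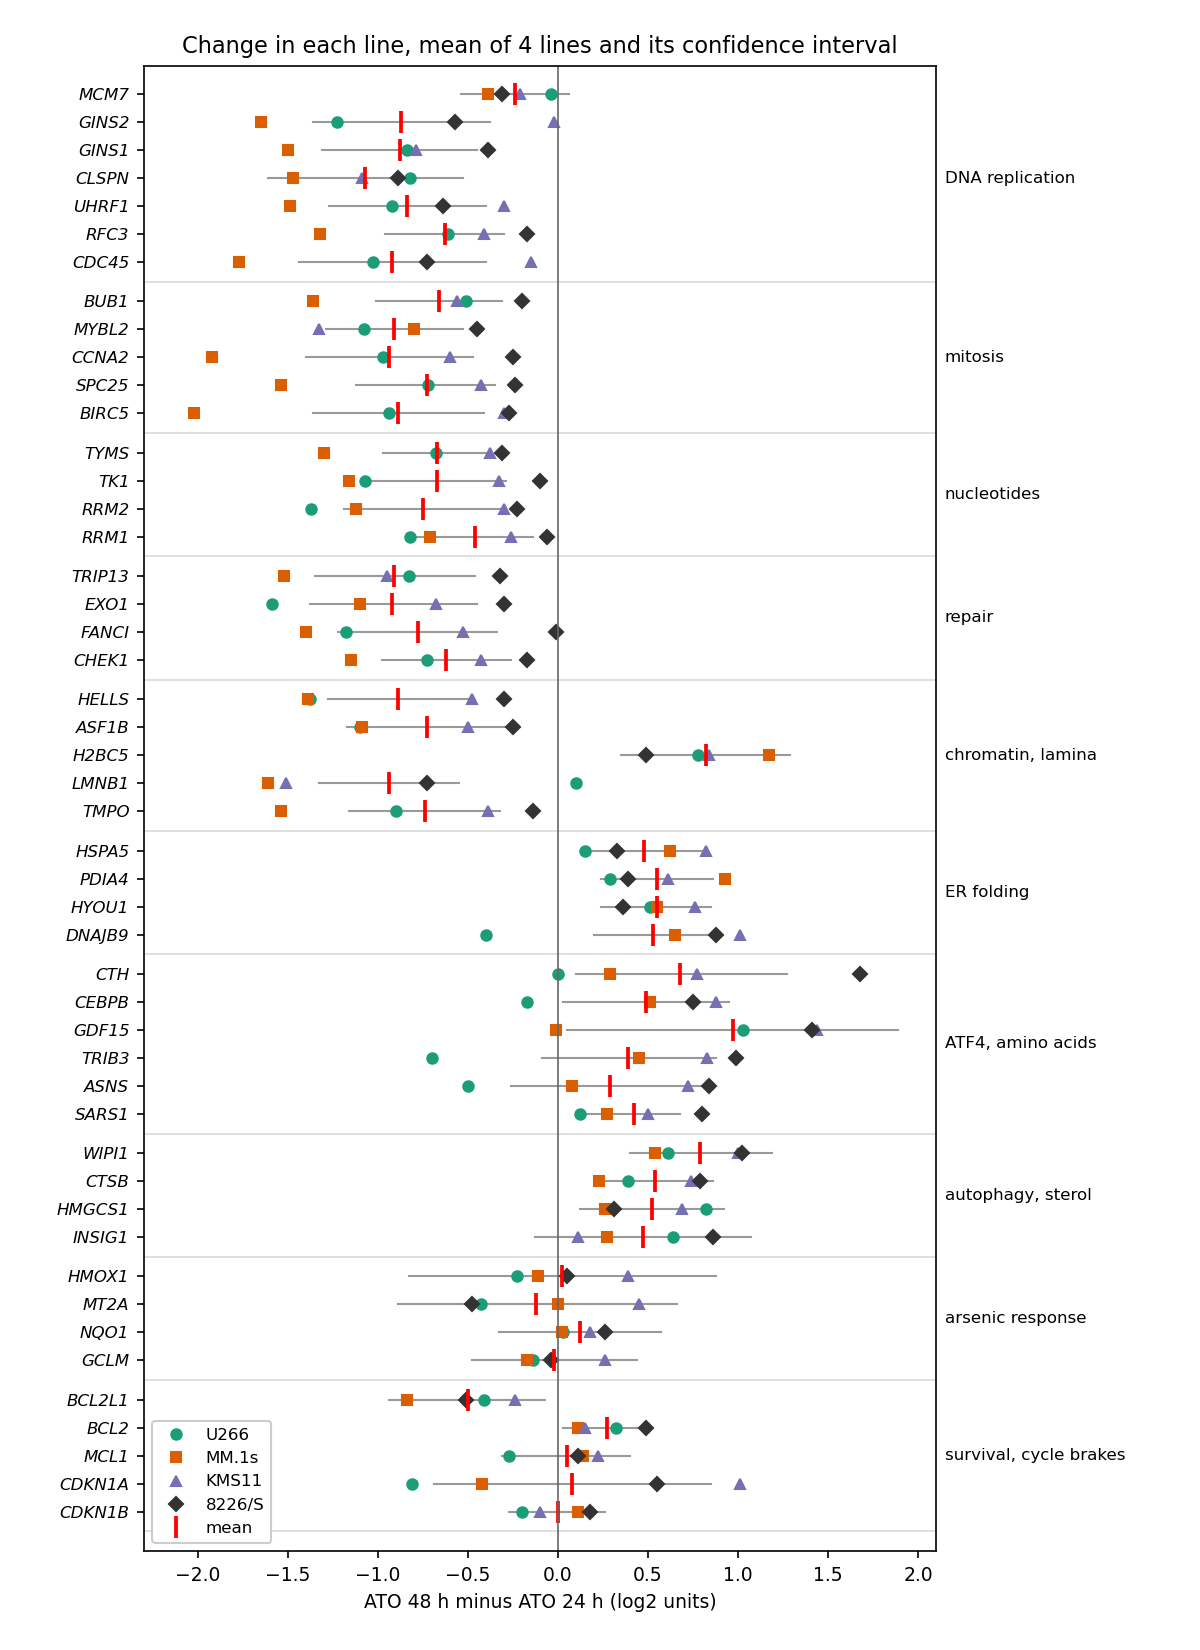
Change of 48 genes in each line, ATO 48 h minus ATO 24 h, in log2 units; the red mark is the mean of the 4 lines and the grey bar its 95% interval in limma's fit. Genes of replication and mitosis lie left of 0 with MM.1s mostly farthest left, ER folding genes lie to the right except DNAJB9 in U266, and the arsenic response genes lie around 0.

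Some enzymes that make deoxynucleotides were lower too. Of 24 measured members of the nucleotide list (of 26 listed), 7 were lower at an unadjusted p under 0.05 (29.2%), 0 were higher, and 10 were lower in 4 of 4 lines (41.7%), with a median of -0.19. Without KMS11 the count of 7 was 4. Thymidylate synthase (TYMS), which makes dTMP, had signals of 10662, 5389, 15341 and 15521 in U266, MM.1s, KMS11 and 8226/S at ATO 48 h, against 17067, 13336, 19954 and 19286 at ATO 24 h. Its log2 change was -0.67 ± 0.15 (limma, unadjusted p = 0.000123, adjusted p = 0.279), with 4 of 4 lines lower. RRM2, the S phase subunit of ribonucleotide reductase, had 5562, 7704, 8260 and 13191 at ATO 48 h, against 14463, 16742, 10168 and 15443 at ATO 24 h. Here U266 was the lowest, at -1.37. Thymidine kinase (TK1) and the large reductase subunit RRM1 were at -0.67 ± 0.18 and -0.46 ± 0.16.

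The list of DNA repair and checkpoint genes had 16 of 29 measured members lower at an unadjusted p under 0.05 (55.2%) and 0 higher, 17 lower and 1 higher in 4 of 4 lines, and a median of -0.39. Without U266 the count of 16 was 8, and without MM.1s it was 9. TRIP13, an ATPase that remodels checkpoint complexes, had signals of 858.4, 755.7, 2390 and 7041 in U266, MM.1s, KMS11 and 8226/S at ATO 48 h, against 1551, 2231, 4652 and 8808 at ATO 24 h. EXO1, a nuclease of mismatch repair, had 479.2, 345.2, 1298 and 2078 at ATO 48 h, against 1503, 778.7, 2093 and 2574 at ATO 24 h. Both were lower in all 4 lines, with mean changes of -0.91 ± 0.21 for TRIP13 and -0.92 ± 0.23 for EXO1. FANCI, of the crosslink repair pathway, was at -0.78 ± 0.21, with -0.01 in 8226/S, and the checkpoint kinase CHEK1 was at -0.62 ± 0.17. XPC, a sensor of bulky DNA damage counted in the p53 list and not in this one, differed the other way. Its signals were 1486, 2893, 868.1 and 1355 at ATO 48 h, against 1021, 1575, 483.5 and 804.2 at ATO 24 h. All 4 lines were higher for XPC by 0.53 to 0.86 log2 units (mean 0.73 ± 0.19, limma adjusted p = 0.427).

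Chromatin assembly genes split. Of 18 measured members of the histone and chromatin assembly list, 5 were lower and 3 higher at an unadjusted p under 0.05, with a median of -0.22. By line the median was -0.21 in U266, -0.22 in MM.1s, -0.05 in KMS11 and 0.04 in 8226/S. Over all lines it was -0.11 without U266, -0.13 without MM.1s and -0.09 without KMS11. The lower count was 3 without U266 and 3 without MM.1s, and the higher count was 1 without MM.1s. HELLS, a remodeller that maintains DNA methylation, had signals of 383.6, 369.8, 794.1 and 963.7 in U266, MM.1s, KMS11 and 8226/S at ATO 48 h, against 1053, 1021, 1124 and 1192 at ATO 24 h. The groups did not overlap for HELLS, the highest ATO 48 h array being below the lowest ATO 24 h array. This held for 3 of 814 listed genes (0.369%), under the 1.19% of all genes. The HELLS change was -0.89 ± 0.19 (limma adjusted p = 0.273). The histone chaperone ASF1B was at -0.73 ± 0.21, and HMGB1 had a mean change of -0.32. H2BC5, a histone H2B gene, was higher in 4 of 4 lines, with signals of 2474, 994.0, 1524 and 900.3 at ATO 48 h, against 1429, 423.0, 837.7 and 632.1 at ATO 24 h. Its probe set is of a type that can also bind transcripts of other histone genes.

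Lamins form the meshwork under the nuclear envelope. LMNB1, which encodes lamin B1, had signals of 2146 in U266, 762.6 in MM.1s, 1127 in KMS11 and 4105 in 8226/S at ATO 48 h, against 2001, 2387, 3271 and 6852 at ATO 24 h. Lamin B1 was lower in 3 of 4 lines, at -1.61 in MM.1s, -1.51 in KMS11 and -0.73 in 8226/S, while U266 was at 0.10. The mean change was -0.94 ± 0.19 (limma, unadjusted p = 4.34e-05, adjusted p = 0.184), and without U266 it was -1.28 with an adjusted p of 0.0412. The 4 changes had an SD of 0.79, and in limma's fit of 8 arrays LMNB1 had an unadjusted p of 0.00486 (adjusted p = 0.564). TMPO, which anchors lamins to chromatin, was lower in 4 of 4 lines at -0.74 ± 0.20, and emerin (EMD) in 4 of 4 at -0.36 ± 0.14. In the list of collagen processing and lamina genes these were the 3 of 17 at an unadjusted p under 0.05, with 0 higher, and the list's median was -0.09. Without 8226/S the median was -0.17, and in the fit of 8 arrays 5 of 17 were lower.

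The 7 measured members of the cyclin D and CDK4/6 list all had mean changes below 0, between -1.16 and -0.08, with a median of -0.17. By line the median was -0.14 in U266, -0.28 in MM.1s, -0.14 in KMS11 and 0.06 in 8226/S. CDC25A, a phosphatase that activates cyclin-dependent kinases, had signals of 87.3, 121.4, 329.4 and 1430 in U266, MM.1s, KMS11 and 8226/S at ATO 48 h, against 414.5, 637.8, 684.0 and 1103 at ATO 24 h. The change was below 0 in U266, MM.1s and KMS11 and 0.37 in 8226/S, with a mean of -1.16 ± 0.33 (limma adjusted p = 0.493). At 48 h its signals in U266 and MM.1s lay under the medians of their arrays, 127.5 and 142.1, so these changes are among dim values. CDC25A was the 1 of 7 members at an unadjusted p under 0.05 (2 in the fit of 8 arrays). Cyclin D2 (CCND2) was at -0.12 ± 0.17. Among 21 CDK inhibitors and cell cycle exit genes, 1 was lower and 0 were higher, the 1 being LIN9, a core MuvB subunit, at -0.44 ± 0.17. Of the 21, 3 were higher in the fit of 8 arrays, among them the anti-proliferative gene BTG1 (0.41 ± 0.21) and LIN37, another MuvB subunit (0.36 in the mean). The CDK inhibitor p21 (CDKN1A) had signals of 848.7, 2635, 1196 and 932.5 at ATO 48 h, against 1510, 3544, 578.6 and 626.7 at ATO 24 h. U266 and MM.1s were lower and KMS11 and 8226/S higher, so the mean of 0.08 ± 0.37 had an interval of -0.69 to 0.85. CDKN1B, which encodes p27, was at 0.00 ± 0.13, with an interval of -0.27 to 0.26. For MYC and ribosome biogenesis 0 of 23 members were at an unadjusted p under 0.05 (3 lower and 1 higher in 4 of 4 lines), and in the fit of 8 arrays 2 were lower and 1 was higher. MYC itself was at 119.6, 9236, 3475 and 13498 at ATO 48 h, against 88.3, 12777, 4180 and 12965 at ATO 24 h, with U266 low at both times.

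The median change of the ER chaperones between 24 h and 48 h was above 0 in 3 of the 4 lines. Of 30 measured members 10 were higher at an unadjusted p under 0.05 (33.3%) and 0 lower, and 8 were higher in 4 of 4 lines (26.7%). When each array was centred on its median, 3 members were higher in 4 of 4 lines, against 1172 of all 19775 genes. The count of 10 was 6 without MM.1s, 4 without KMS11 and 6 without 8226/S, and 6 with centred arrays. The median was 0.24, and by line -0.14 in U266, 0.32 in MM.1s, 0.36 in KMS11 and 0.33 in 8226/S. The 48 other probe sets of these genes had a lower median, 0.09, with 6 higher at an unadjusted p under 0.05 and 0 lower. HSPA5, the chaperone whose ERSE is printed above, had signals of 10290 in U266, 13593 in MM.1s, 12879 in KMS11 and 18453 in 8226/S at ATO 48 h, against 9300, 8838, 7276 and 14682 at ATO 24 h. Every line was higher, U266 by 0.15 and KMS11 by 0.82, and the mean was 0.48 ± 0.15 (limma, unadjusted p = 0.00498, adjusted p = 0.591).

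PDIA4, an ER disulfide isomerase, had signals of 2039, 3561, 4217 and 5298 in U266, MM.1s, KMS11 and 8226/S at ATO 48 h, against 1664, 1855, 2759 and 4045 at ATO 24 h. HYOU1, an ER chaperone of the large HSP70 type, had 3438, 6304, 7682 and 10451 at ATO 48 h, against 2399, 4286, 4529 and 8135 at ATO 24 h. Both were higher in 4 of 4 lines, each at 0.55 ± 0.15 (limma adjusted p = 0.441 for each). DNAJB9, an HSP70 partner in the ER, was higher in 3 lines, at 0.65 in MM.1s, 1.01 in KMS11 and 0.88 in 8226/S, and at -0.40 in U266. XBP1, the factor that drives this program in plasma cells, was at 0.03 ± 0.17, with 5086, 8978, 8929 and 8754 at ATO 48 h against 7165, 9735, 8111 and 5730 at ATO 24 h.

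The ATF4 stress response, by which cells answer amino acid shortage and several other stresses, had line medians of different sign. With 1 array per line and time this difference was not tested. Of 28 measured members 3 were higher at an unadjusted p under 0.05 (10.7%) and 0 lower, 2 were higher in 4 of 4 lines, and the median was 0.29. Its line medians were -0.28 in U266, 0.08 in MM.1s, 0.60 in KMS11 and 0.70 in 8226/S. In KMS11 28 of 28 members were higher, and in U266 23 of 28 were lower. The median log2 level of the list at 6, 24 and 48 h was 11.59, 11.1 and 11.66 in KMS11 and 10.25, 9.61 and 10.25 in 8226/S. In KMS11 and 8226/S the 24 h array thus lay below the 6 h array, and the 48 h level was near that of 6 h. In the same order of times the level was 11.58, 11.26 and 11.02 in U266 and 10.49, 10.77 and 10.78 in MM.1s. Without U266, the line with a median below 0, the median was 0.49. Of the 28 members 21 were higher in the 3 remaining lines, against 3238 of all 19775 genes. The count of 3 at an unadjusted p under 0.05 was 6 without U266, 1 without KMS11 and 0 without 8226/S, and 5 in the fit of 8 arrays. The 22 other probe sets of these genes had a median of 0.08, with 0 higher at an unadjusted p under 0.05 and 1 lower.

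CTH, which makes cysteine, had signals of 2280, 1066, 400.9 and 968.6 in U266, MM.1s, KMS11 and 8226/S at ATO 48 h, against 2287, 866.3, 221.1 and 280.4 at ATO 24 h. The change was 0.00 in U266 and 1.68 in 8226/S. TRIB3, a pseudokinase induced by ATF4, had 4373, 6802, 10713 and 6741 at ATO 48 h, against 7139, 4961, 6005 and 3367 at ATO 24 h, which is lower in U266 and higher in the other 3 lines. ASNS, asparagine synthetase, was at -0.50, 0.08, 0.72 and 0.84 in U266, MM.1s, KMS11 and 8226/S, and DDIT3, a pro-death factor downstream of ATF4, at -0.10, 0.17, 1.04 and 0.75. The other 2 members at an unadjusted p under 0.05 were CEBPB, a transcription factor, at 0.49 ± 0.22, and the secreted stress protein GDF15 at 0.97 ± 0.45. GDF15 was dim in 8226/S, at 165.5 at ATO 48 h and 42.6 at ATO 24 h.

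Amino acid transporters and tRNA synthetases had 3 of 22 members higher at an unadjusted p under 0.05 and 0 lower, with a median of 0.11. They were the seryl-tRNA synthetase SARS1 (0.42 ± 0.13, 4 of 4 lines higher), the tryptophanyl-tRNA synthetase WARS1 (0.43 ± 0.16) and the transporter subunit SLC3A2 (0.30 ± 0.13). As for ATF4, the line order of the medians was -0.27 in U266, 0.11 in MM.1s, 0.36 in KMS11 and 0.38 in 8226/S. The count of 3 was 7 without U266 and 1 without either KMS11 or 8226/S.

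Autophagy and lysosome genes had 4 of 29 measured members higher at an unadjusted p under 0.05 and 0 lower, and 7 higher and 1 lower in 4 of 4 lines, with a median of 0.17. The count of 4 was 2 without MM.1s and 8 in the fit of 8 arrays. WIPI1, which binds the membrane that grows into the autophagosome, had signals of 3531, 1847, 2563 and 782.1 in U266, MM.1s, KMS11 and 8226/S at ATO 48 h, against 2296, 1262, 1265 and 368.3 at ATO 24 h. Every line was higher by at least 0.54 log2 units, the mean was 0.79 ± 0.19 (limma, unadjusted p = 0.000365, adjusted p = 0.398), and the second WIPI1 probe set gave 0.81. The lysosomal protease cathepsin B (CTSB) had 8253, 9633, 7249 and 4965 at ATO 48 h, against 6282, 8231, 4332 and 2863 at ATO 24 h, and was higher in 4 of 4 lines (0.54 ± 0.16). TFE3 and ATP6V1H were also at an unadjusted p under 0.05, with mean changes of 0.61 and 0.275. The 4 changes of TFE3 had an SD of 0.96, which is larger than their mean. MAP1LC3A, a gene of the LC3 family that coats autophagosomes, is another of the 3 listed genes whose groups did not overlap (0.369% of listed genes, against 1.19% of all), named after its values were seen, with signals from 348.8 to 411.4 at ATO 48 h and from 159.2 to 313.8 at ATO 24 h. SQSTM1, the cargo receptor p62, was lower in U266 and MM.1s and higher in KMS11 and 8226/S (mean 0.09 ± 0.19).

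Sterol and fatty acid synthesis genes had 1 of 24 members at an unadjusted p under 0.05, HMGCS1, and 7 that were higher in 4 of 4 lines (29.2%). HMGCS1, which makes the precursor of mevalonate, had signals of 994.6, 566.2, 831.5 and 1723 in U266, MM.1s, KMS11 and 8226/S at ATO 48 h, against 549.5, 468.3, 504.4 and 1388 at ATO 24 h. All 4 lines were higher, with a mean of 0.52 ± 0.19 (limma adjusted p = 0.684), although its second probe set was at -0.01. INSIG1, a sterol sensor of the ER, was higher in 4 of 4 lines as well, by 0.11 in KMS11 to 0.86 in 8226/S. The list's median was 0.34 in U266, -0.17 in MM.1s, 0.13 in KMS11 and 0.42 in 8226/S, so MM.1s lay on the other side. The fit of 8 arrays had 6 of 24 members higher at an unadjusted p under 0.05. Without MM.1s 5 members stood at an unadjusted p under 0.05 and the median was 0.31, and without U266 or KMS11 the count was 0.

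Interferon response genes had 12 of 34 measured members higher in 4 of 4 lines (35.3%) and 0 lower, with a median of 0.28, but 1 at an unadjusted p under 0.05. In the fit of the 8 arrays alone 10 were higher and 1 lower at an unadjusted p under 0.05. When each array was centred on its median the count in 4 of 4 lines was 8, against 1172 of all 19775 genes. The 1 gene was RIGI, a sensor of viral RNA, with signals of 648.5, 541.8, 440.5 and 399.4 in U266, MM.1s, KMS11 and 8226/S at ATO 48 h, against 449.2, 363.7, 345.5 and 334.2 at ATO 24 h. Its change was 0.40 ± 0.19 (limma adjusted p = 0.863). RSAD2, an antiviral enzyme, was dim, with signals from 140.3 to 235.2 at ATO 48 h and from 19.6 to 185.3 at ATO 24 h, and higher in all 4 lines. IFITM2, an antiviral membrane protein, lay on the other side at -0.80 ± 0.42. Among 21 MHC genes HLA-E (0.44 ± 0.16) was the 1 at an unadjusted p under 0.05, and by its brightest probe set not ending in _x_at it was at 0.78. In the fit of 8 arrays, and without KMS11, 2 MHC genes were higher.

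Genes of cell death and survival showed small differences. BCL2L1, which encodes the survival protein BCL-XL, had signals of 1689, 1580, 1499 and 1544 in U266, MM.1s, KMS11 and 8226/S at ATO 48 h, against 2251, 2860, 1776 and 2218 at ATO 24 h. The groups did not overlap, which held for 3 of 814 listed genes (0.369%) against 1.19% of all genes, and the change was of -0.50 ± 0.21 (limma, unadjusted p = 0.0261, adjusted p = 0.788), while its 3 other probe sets were at -0.14 to -0.13. BCL2, the founding survival gene of the family, was higher in 4 of 4 lines, with 3919, 2154, 1264 and 1343 at ATO 48 h against 3143, 1997, 1137 and 946.6 at ATO 24 h (0.27 ± 0.12). MCL1, on which many myeloma cells depend, was at 0.05 ± 0.17, with an interval of -0.31 to 0.40. Of 10 pro-death members 0 stood at an unadjusted p under 0.05 (1 higher in the fit of 8 arrays): BMF was at 0.07 ± 0.27 and PMAIP1, which encodes NOXA, at 0.00 ± 0.30, with MM.1s at -0.79. Of 20 death receptor and caspase genes 1 was lower, CASP2, at -0.28 ± 0.11 (-0.45 by the median of its probe sets), and in the fit of 8 arrays 3 were higher. Of 26 p53 targets XPC was higher and the phosphatase PPM1D lower (-0.33 ± 0.15, 4 of 4 lines), with 2 higher in the fit of 8 arrays.

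The genes through which cells answer arsenic itself were high at both times. HMOX1, heme oxygenase, had signals of 22899 in U266, 28928 in MM.1s, 32912 in KMS11 and 31868 in 8226/S at ATO 48 h, against 26819, 31285, 25091 and 30875 at ATO 24 h. U266 and MM.1s were lower and KMS11 and 8226/S higher, with a mean of 0.02 ± 0.41, an interval of -0.83 to 0.88 and an SD of the 4 changes of 0.27. MT2A, a metallothionein that binds metals, had 18212, 32864, 19084 and 13952 at ATO 48 h, against 24631, 32800, 13918 and 19529 at ATO 24 h (-0.12 ± 0.37). HMOX1, and MT2A in MM.1s, lay near the top of the array scale. The highest signal of the array was 29298 in U266, 41203 in MM.1s, 45727 in KMS11 and 40285 in 8226/S at ATO 48 h. At ATO 24 h it was 32110, 39024, 38839 and 41247 in the same lines. How far this limits the changes of these genes was not tested. Metallothionein probe sets can bind more than 1 family member. NQO1, a quinone reductase under the antioxidant factor NRF2, was at 0.12 ± 0.22 and GCLM, of glutathione synthesis, at -0.02 ± 0.22. Of 28 NRF2 targets and of 11 metallothionein and zinc genes, 0 stood at an unadjusted p under 0.05, 3 NRF2 targets were higher in 4 of 4 lines, and 2 metallothionein and zinc genes were lower in 4 of 4. Of the 11 metallothionein and zinc genes 4 were lower at an unadjusted p under 0.05 in the fit of 8 arrays, MT1M, MT1F, MT1G and the zinc sensor MTF1, with mean changes of -0.78, -0.37, -0.36 and -0.31 (MTF1 was at 0.02 by the median of its probe sets). The same fit had 2 of the 28 NRF2 targets higher, the aldo-keto reductases AKR1C1 (0.52) and AKR1C3 (0.33), the second named after its values were seen. The medians of the 2 lists were 0.10 and -0.14. The metallothionein list was at -0.41 in U266, -0.08 in MM.1s, 0.21 in KMS11 and -0.48 in 8226/S.

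Of 19 heat shock genes 1 was lower at an unadjusted p under 0.05, HSPH1, a large HSP70 relative, at -0.32 ± 0.14, and 6 were lower in 4 of 4 lines. The fit of 8 arrays had 5 of the 19 lower, HSPH1, BAG3, the collagen chaperone SERPINH1 (-0.58) and, named after their values were seen, the small heat shock gene HSPB1 (-0.39) and CLU (-0.24). BAG3, a co-chaperone of HSP70, was at -0.22 ± 0.23. Of 30 proteasome genes 0 stood at an unadjusted p under 0.05, with 5 lower and 1 higher in 4 of 4 lines and a median of -0.01, and the fit of 8 arrays had 1 in each direction. Of 20 genes of arsenic and glutathione handling AQP9, a channel that lets arsenite in, was the 1 at an unadjusted p under 0.05 (-0.46 ± 0.22), and it was dim on all 8 arrays. That count was 0 in the fit of 8 arrays. Of 13 iron genes 0 did. Of 10 genes of PML bodies and the SUMO pathway, which ATO acts on in leukaemia, SAE1, a subunit of the SUMO-activating enzyme, was the 1 (-0.26 ± 0.09).

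Plasma cell identity genes had 0 of 24 members at an unadjusted p under 0.05, with 2 lower and 1 higher in 4 of 4 lines and a median of -0.04. In the fit of 8 arrays 1 was lower and 1 higher. TNFRSF17, which encodes the surface receptor BCMA, had signals of 3583, 5462, 1444 and 680.6 in U266, MM.1s, KMS11 and 8226/S at ATO 48 h, against 6871, 4957, 1395 and 468.6 at ATO 24 h. U266 was lower, at -0.93, and the change was between 0.05 and 0.51 in the others. IRF4, a factor myeloma cells depend on, was at 0.20 ± 0.16, and MZB1, a folding factor for antibody chains, at 0.13 ± 0.35. Of 9 immunoglobulin genes 0 stood at an unadjusted p under 0.05 (1 lower in the fit of 8 arrays), with a median of -0.14. That median was 0.04 without U266, -0.29 without MM.1s, -0.06 without KMS11 and -0.23 without 8226/S, and it was -0.06 with an offset of 100. JCHAIN, the chain that joins antibody polymers, had 3928 at ATO 48 h against 12131 at ATO 24 h in U266, and differed by at most 0.18 in the other lines.

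Among the remaining lists, the respiratory chain had 3 of 29 members higher at an unadjusted p under 0.05, the complex I subunits NDUFA1 (0.28 ± 0.09) and NDUFB8 (0.26 ± 0.10) and the complex IV subunit COX5B (0.24 ± 0.09), with a median of 0.07. The count of 3 was 1 without MM.1s, 0 without KMS11 and 1 with centred arrays. Glycolysis and hypoxia had 1 of 28 higher, the growth factor VEGFA (0.48 ± 0.18), which was higher in KMS11 and 8226/S, with changes of 0.00 and -0.02 in U266 and MM.1s. Of the 28, 4 were higher in the fit of 8 arrays, and the list's median of 0.09 was 0.20 without KMS11, 0.05 without MM.1s and 0.03 without 8226/S. Of 24 AP-1 and immediate early genes MAFF, a small MAF factor, was the 1, with signals of 2405, 1207, 750.4 and 542.1 in U266, MM.1s, KMS11 and 8226/S at ATO 48 h, against 1373, 710.6, 381.0 and 313.9 at ATO 24 h. Its 4 changes lay between 0.73 and 0.92, and in the fit of 8 arrays 3 of the 24 were higher and 1 lower. Of 16 IL-6 and JAK-STAT3 genes, BCL6, a repressor, was higher (0.74 ± 0.26, 4 of 4 lines) and the kinase PIM1 lower (-0.35 ± 0.14, 4 of 4 lines), while 2 dimmer BCL6 probe sets were at -0.22 and -0.07. Of 19 NF-kB targets TNF (0.82 ± 0.36) and of 23 actin and integrin genes CD63 (0.20 ± 0.08) were higher at an unadjusted p under 0.05. The fit of 8 arrays had 3 IL-6 and JAK-STAT3 genes higher, and 2 NF-kB targets higher and 1 lower.

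Markers of other cell types were set beside these results. Of 28 measured markers 1 was lower at an unadjusted p under 0.05, the platelet gene PF4. The keratin KRT8 and the lymphocyte gene GNLY were the 2 that were higher. In 4 of 4 lines 8 were higher (28.6%, against 9.71% of all genes) and 0 lower. Their summed signal was 5900 in U266, 7298 in MM.1s, 7388 in KMS11 and 19126 in 8226/S at ATO 48 h, against 5099, 6051, 6971 and 17318 at ATO 24 h. Between 12 and 13 of the 28 lay above the array median at ATO 48 h and between 12 and 16 at ATO 24 h. The monocyte genes CD14 and LYZ and the killer cell gene NKG7 stayed at signals of 112.5 or less on all 8 arrays. They are dim members of the list and do not stand for the markers that lay above the array median. The higher count of 2 was 4 without 8226/S and 1 without any other single line, and 1 in the fit of 8 arrays. The part of these markers in the results was not tested. In RNA from whole cultures, fewer cells of a type and less RNA per cell cannot be told apart.

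Over 12935 genes that lay above the array median on at least 4 of the 8 arrays, the correlation of the changes between lines was between 0.005 for U266 with 8226/S and 0.186 for MM.1s with KMS11 (Pearson's r across genes, which are not independent replicates). Of these genes 201 in U266, 376 in MM.1s, 203 in KMS11 and 215 in 8226/S were lower by over 1 log2 unit (1.55%, 2.91%, 1.57% and 1.66%). Genes higher by over 1 log2 unit numbered 301, 206, 316 and 224 in the same lines (2.33%, 1.59%, 2.44% and 1.73%). With 1 array per time these counts have no replicate check within a line.

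The levels at 6 h and in untreated cells, whose titles give no time, are set beside the second day. The median signal of the DNA replication list in U266 was 2021 untreated, 1627 at 6 h, 1295 at 24 h and 766.0 at 48 h. In the same order of times it was 1287, 1232, 1149 and 572.0 in MM.1s, 2307, 2214, 1677 and 1212 in KMS11, and 2532, 2819, 2492 and 2407 in 8226/S. Most of the difference from untreated MM.1s cells lay after 24 h, whereas U266 and KMS11 were already lower at 24 h and 8226/S differed little at any time. On the log2 scale the mitosis list in MM.1s was at 11.12, 10.89, 10.74 and 9.31, and in KMS11 at 11.71, 11.39, 11.99 and 11.64. The median signal of the ER list, untreated and at 6, 24 and 48 h, was 4455, 4510, 2445 and 3093 in U266 and 7653, 6158, 3875 and 4517 in MM.1s. In KMS11 it was 6680, 5480, 3581 and 4910, and in 8226/S 5684, 4880, 4053 and 5768. In every line the 24 h array was the lowest of the 4. In U266 this median of levels was higher at 48 h although the median of the changes was -0.14. The NRF2 list was above untreated cells from 6 h on, as the plot of list levels over time shows. These are descriptions with 1 array per point.

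**Figure D4:**
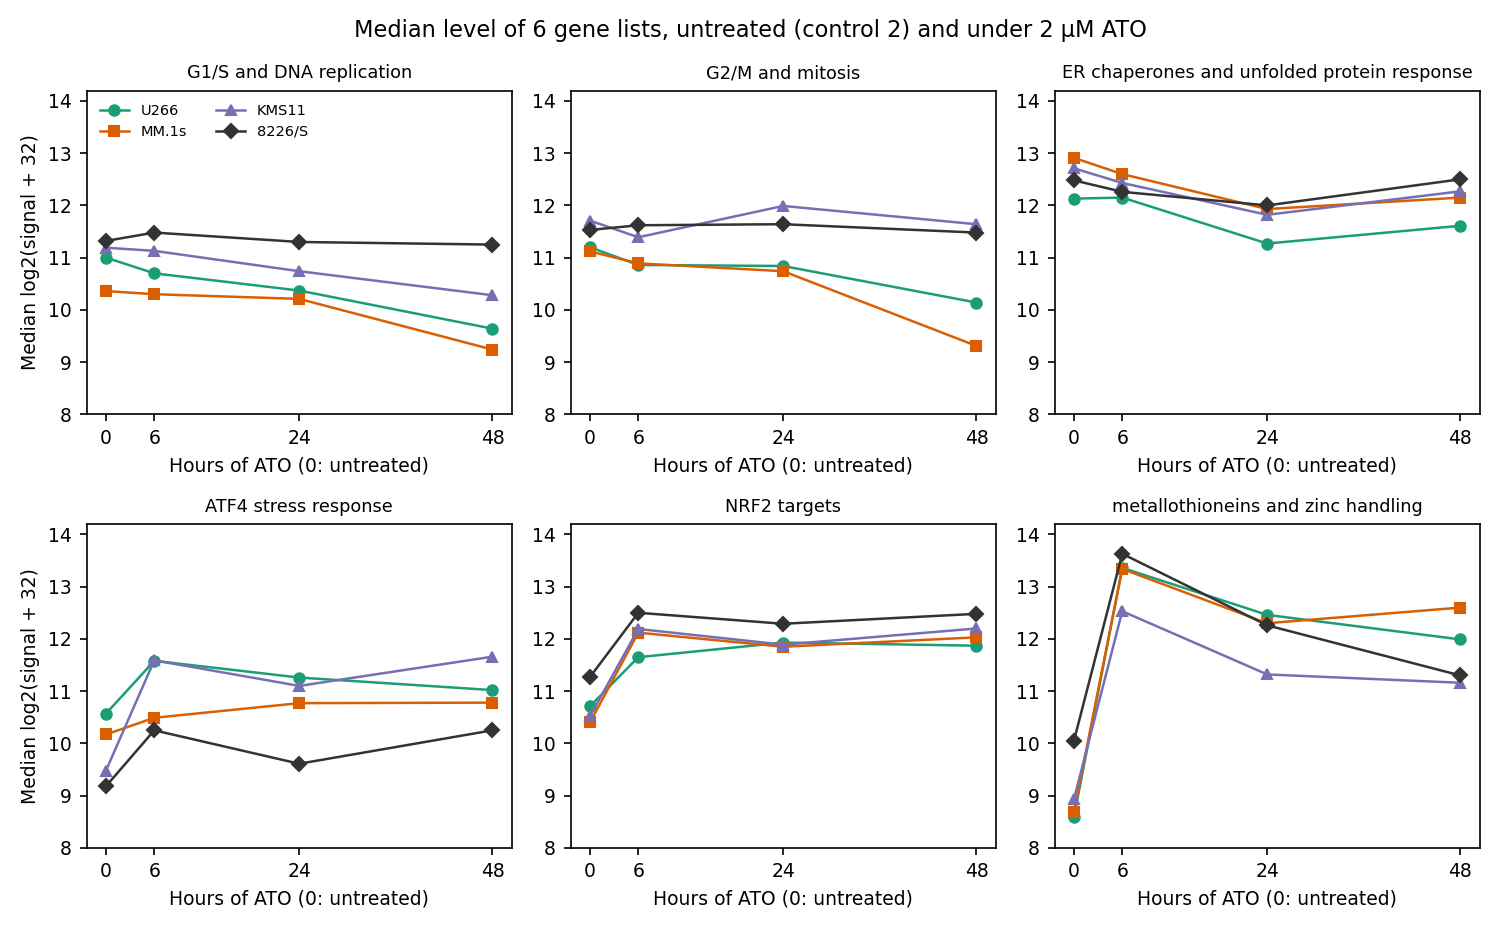
Median log2(signal + 32) of the members of 6 gene lists, untreated (control 2, drawn at 0 h) and after 6, 24 and 48 h of 2 µM ATO, with 1 array per point and a line for each cell line. DNA replication levels are lowest at 48 h in all 4 lines and mitosis levels in U266, MM.1s and 8226/S, and NRF2 targets stay high from 6 h on. The median ER chaperone level is higher at 48 h than at 24 h in all 4 lines. In U266, however, 21 of the 30 members were lower at 48 h, with a median change of -0.14.

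Some genes outside the lists stood out and were chosen after their values were seen. PLA2G12A, a secreted phospholipase, had signals of 253.2, 299.6, 1621 and 517.3 in U266, MM.1s, KMS11 and 8226/S at ATO 48 h, against 990.4, 1056, 1814 and 1873 at ATO 24 h. It was lower by 1.71 to 1.84 log2 units in 3 lines and by 0.16 in KMS11 (mean -1.38 ± 0.24, limma adjusted p = 0.0825), but its 3 other probe sets were between -0.14 and 0.00. TSPAN31, a tetraspanin, had 2118, 3521, 2713 and 2158 at ATO 48 h, against 1239, 2257, 1631 and 1214 at ATO 24 h. Its 4 changes lay between 0.63 and 0.81 (mean 0.73 ± 0.14, limma adjusted p = 0.116), and its second probe set was at 0.17. OIP5, a centromere protein, was lower in 4 of 4 lines at -0.81 ± 0.15 (limma adjusted p = 0.112). CDCA5, which holds sister chromatids together, was lower in 4 of 4 lines at -1.12 ± 0.23 (limma adjusted p = 0.237), with -0.14 in 8226/S.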

How the data were processed

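Total RNA was hybridised to Affymetrix HG-U133 Plus 2.0 arrays, and the deposited intensity values were made by the authors with GCOS, per the submitters' processing notes (version not given in the sources used here). No detection calls were used. Of 54675 probe sets, 62 array controls were left out. The log2 of the intensity plus 32 was analysed in R 4.3.3 with limma 3.58.1 (lmFit, eBayes with trend). The fit held all 28 arrays, with a block for each line within each array set (control 1 with DAR, control 2 with ATO), a split seen in the values and not in the labels. The estimate equals the mean of the 4 paired differences. P-values were adjusted over 54613 probe sets at a threshold of 0.05. Lines pair the arrays: deviations of the same line correlated at 0.674 to 0.811, those of other lines at -0.069 at most. Symbols came from the platform annotation updated through RefSeq, and a gene stands for its brightest probe set with 1 symbol (19775 genes). Genes to be named were the 4 members of each of 36 lists with the smallest p and a short set that includes MCM7, GINS2 and BUB1. Not every gene so picked is described above. Members and lists were chosen with earlier results of these data known. The number of arrays limits the precision, and the script was tested on simulated data. Offsets, scaling, fits of 8, 12 and 16 arrays, the block, the probe set and leaving out each line were tried as alternatives.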

Additional observations from a re-analysis of the deposited data

Results flagged for a closer look

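In each of 157 groups of 4 paired changes (121 genes and 36 lists), 1 line was looked for whose gap to the nearest other line exceeded Dixon's critical share of the whole range for 4 values, and 10 were found. Chance alone gives about 1 in 20 such groups. U266 stood apart in 3 of them: the ER chaperone list was at -0.14 there and at 0.32 to 0.36 in the other lines, the autophagy list at -0.01, and JCHAIN at -1.62. MM.1s stood apart for PMAIP1 at -0.79, for PIM1 at -0.72 and for OIP5 at -1.42. KMS11 stood apart for PLA2G12A at -0.16, for IGLV1-44, a lambda variable gene, at -1.99, for MAP1LC3A at 1.21 and for POLR1C, an RNA polymerase subunit, at 0.06. Each is a value of 1 array pair, and differences between lines were not tested.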

How the results depend on the processing

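The count of called genes was 0 in the fit as designed and with both offsets, both other scalings, the filter on dim probe sets, the other fits and probe sets not ending in _x_at. It was 1 without U266 (LMNB1), 0 without MM.1s, 1 without KMS11 (PLA2G12A) and 3 without 8226/S (DSCC1, CDCA5 and HELLS), named after their values were seen. Called probe sets ranged from 0 to 7 when a line was left out and were 2 with an offset of 100 (1 of SRC and 1 without a single symbol). Without the replicate block, 8 arrays gave 0 calls, and 89 genes lower and 179 higher at an unadjusted p under 0.05. With 8 arrays and the block these were 831 and 906, with line alone as the block on 28 arrays 325 and 275, with each array centred on its median 785 and 350, without MM.1s 409 lower and without KMS11 367 higher. The median of the DNA replication list ranged from -0.54 to -0.33 and that of the mitosis list from -0.81 to -0.33 when a line was left out. By the median of its probe sets BCL2L1 was at -0.14, BCL6 at -0.07, PLA2G12A at -0.11 and HSPA5 at 0.78, and IDI1, a sterol synthesis gene at 0.42 in the fit as designed, was at -0.28 by its brightest probe set not ending in _x_at. Of 2048 other values of single genes 2027 moved by less than the SD of the 4 paired changes, 17 moved by more and 4 were called. Dim genes have only loosely known changes, and no detection calls were used to mark them.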
